A study of Mus musculus with 6 samples.

Results

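Metallothioneins and the proteins around them keep the liver's free zinc in a narrow range, and 5 genes of that system were followed here: Mt1, Mt2, Mtf1, Slc30a1 and Slc39a14. They were chosen by name, with their measured values known, as genes whose squalene ratio could be compared between the 2 dye orientations of the arrays. In all, 7 probes of 55681 carried an accession that RefSeq assigns to one of the 5 symbols, and all 5 genes passed the filter on dim probes, among 20659 features tested. Their ratios below are therefore a description, with no test.

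The livers came from male Apoe-deficient mice on the C57BL/6J background, so every animal of both diets lacked apolipoprotein E. The squalene group (10 mice) ate a Western diet with 1% squalene, a dose of 1 g/kg, for 11 weeks, and the Western group (9 mice) ate the same diet without it. Both diets held 0.15% cholesterol and 20% palm oil, and the labels used here do not give the age of the mice. Per diet, 4 RNA pools of 2 or 3 animals were made, and a squalene pool and a Western pool shared each array. Squalene RNA was in Cy5, the red dye, in pool pairs 1 and 4 and in Cy3, the green dye, in pairs 2 and 3. Each pool was read in a single dye, so a dye effect and a difference between the pools that share an orientation cannot be told apart. Pairs 1 and 2 were hybridised on both of the 2 slides and pairs 3 and 4 on slide 2 alone, which gave 6 arrays and n = 4 pool pairs.

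Metallothioneins are small, cysteine-rich proteins that bind zinc, copper and cadmium, and the liver makes much of the body's Mt1 and Mt2. The transcription factor MTF1 senses zinc and binds metal response elements in their promoters, and glucocorticoids, interleukin-6 and oxidative stress also raise metallothionein transcription in liver. SLC30A1 (ZnT1) carries zinc out of the cell across the plasma membrane, and SLC39A14 (ZIP14) carries zinc, iron and manganese into hepatocytes.

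Mt2 and Mt1 are neighbours on mouse chromosome 8 with 0 other genes between them in the RefSeq table, and their promoters are shown because the metal response element links both genes and Slc30a1 to MTF1. The sequences are the 250 bases before the RefSeq start in build GRCm38.p6, on the plus strand, at chr8:94178839-94179088 for Mt1, chr8:94172368-94172617 for Mt2 and chr1:191906531-191906780 for Slc30a1. Capitals mark the core of the metal response element, searched as TGCACNC and TGCGCNC on both strands; no matches overlapped.
Mt1: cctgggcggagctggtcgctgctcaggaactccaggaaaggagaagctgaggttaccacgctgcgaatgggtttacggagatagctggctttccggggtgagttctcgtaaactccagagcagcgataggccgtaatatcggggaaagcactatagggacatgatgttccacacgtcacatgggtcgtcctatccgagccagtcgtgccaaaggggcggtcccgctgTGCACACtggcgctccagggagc
Mt2: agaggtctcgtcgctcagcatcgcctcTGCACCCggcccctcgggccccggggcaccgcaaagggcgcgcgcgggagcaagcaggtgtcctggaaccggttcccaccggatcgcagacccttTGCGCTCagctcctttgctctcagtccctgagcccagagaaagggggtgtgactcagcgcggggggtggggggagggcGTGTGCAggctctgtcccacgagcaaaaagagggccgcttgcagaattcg
Slc30a1: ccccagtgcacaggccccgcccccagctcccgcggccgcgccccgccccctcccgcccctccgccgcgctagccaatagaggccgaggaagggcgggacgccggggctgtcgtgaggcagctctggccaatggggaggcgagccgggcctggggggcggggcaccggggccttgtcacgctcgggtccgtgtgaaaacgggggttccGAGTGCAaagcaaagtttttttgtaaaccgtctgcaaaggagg
The Mt1 stretch held 1 match, whose first base lay at -23 from the start, and the Mt2 stretch held 3, at -223, -128 and -50. The Slc30a1 stretch held 1 match at -43, and the Mtf1 stretch held 0. Of 32851 RefSeq promoters of the same length, 21.4% held at least 1 match and 1.26% held at least 3. With the 50 bases after the start added, Mt1 held 3 matches, Mt2 held 4, Slc30a1 held 2 and Mtf1 held 0. The added Mt1 matches lay just after the start, at bases 3 and 21. The counts in the printed stretches therefore depend on where RefSeq sets the start. In that window, 7.11% of all promoters held at least 2 matches, 1.97% at least 3 and 0.517% at least 4. A match is a run of letters and not a shown binding site.

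Ratios are log2 of squalene over Western within a pool pair, so 1 is a doubling. Mt1 gave ratios of 1.16 and 1.29 with squalene in Cy5 (pairs 1 and 4), against -2.12 and -0.58 with squalene in Cy3 (pairs 2 and 3). As folds of squalene over Western, these were 2.23 and 2.44 in pairs 1 and 4, and 0.230 and 0.668 in pairs 2 and 3. The orientations did not overlap and lay on opposite sides of 0. The mean over pairs was -0.06 ± 1.61 (SD, n = 4), which hides pair values on both sides. The orientation means were 1.22 in Cy5 and -1.35 in Cy3, a difference of 2.57 that ranked 1 by size among 20658 features. In this whole-liver RNA, fewer cells of a type and less RNA per cell cannot be told apart.

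Mt2 repeated the layout at a smaller size. Its ratios were 0.82 and 0.86 with squalene in Cy5, against -2.06 and -0.42 with squalene in Cy3. The mean was -0.20 ± 1.37 (SD, n = 4) and the difference between orientation means was 2.08, rank 5. In both genes pair 2 was the farthest from 0, and pair 3 was the nearest. Repeat arrays of a pair differed by 0.01 and 0.04 for Mt1 and by 0.03 and 0.02 for Mt2 (pairs 1 and 2). The gap between pairs 2 and 3 was 1.54 for Mt1 and 1.64 for Mt2, while that between pairs 1 and 4 was 0.13 for Mt1 and 0.04 for Mt2, close to the repeat-array difference of Mt2. Leaving out pair 2 turned the sign of the mean, to 0.32 for Mt1 and 0.21 for Mt2. It also lowered the orientation difference of Mt2 to 1.26, rank 171.

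**Figure D1:**
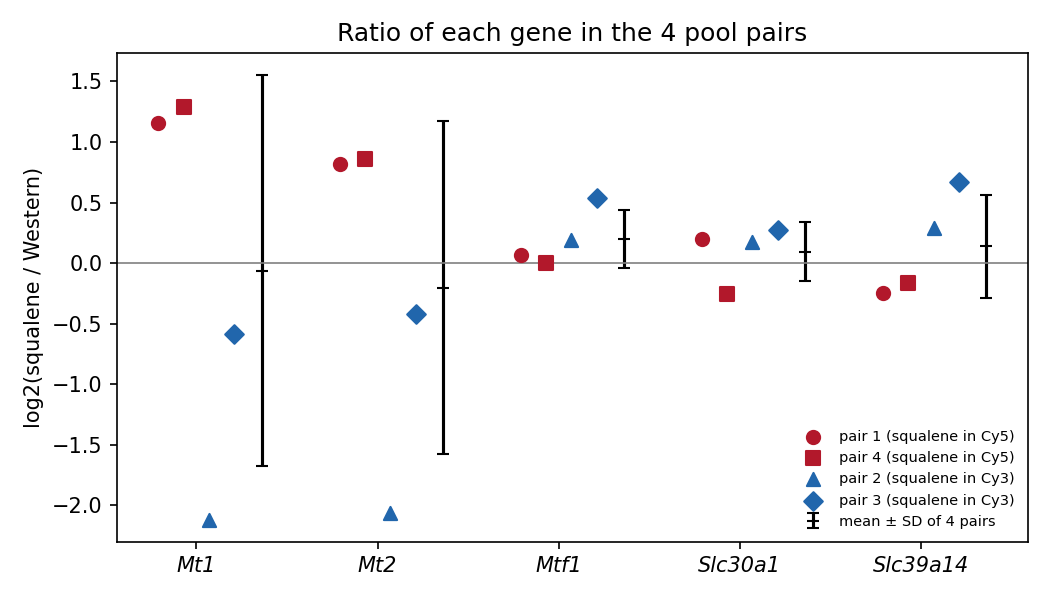
The vertical axis gives log2 of squalene over Western for each of the 5 genes; red points are pairs with squalene in Cy5, blue points pairs with squalene in Cy3, and bars the mean ± SD of 4 pairs. The red points of Mt1 and Mt2 lie between 0.82 and 1.29 and all of their blue points lie below 0, while the other 3 genes stay between -0.26 and 0.67.

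Slc39a14, the zinc and iron importer, had the opposite layout, as did 2604 of 20658 features. Its ratios were -0.25 and -0.16 with squalene in Cy5, against 0.29 and 0.67 with squalene in Cy3. The mean was 0.14 ± 0.43 (SD, n = 4), and the orientation difference was -0.68, a size that 3.42% of features exceeded. That difference was -0.10 with median centring in place of loess and -1.42 in the authors' deposited table after median centring.

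Slc30a1, the plasma membrane zinc exporter, gave ratios of 0.19 and -0.26 with squalene in Cy5, against 0.17 and 0.28 with squalene in Cy3. Pair 4 alone was below 0, and the mean was 0.10 ± 0.24 (SD, n = 4). Its orientation difference was -0.26, rank 6257 by size, and turned to 0.21 with median centring in place of loess. It was -0.48 without pair 1, -0.03 without pair 4 and -1.01 in the authors' deposited table after median centring.

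Mtf1, the zinc-sensing factor, gave 0.07 and -0.003 with squalene in Cy5, against 0.19 and 0.53 with squalene in Cy3. Its mean was 0.20 ± 0.24 (SD, n = 4) and its orientation difference -0.33, rank 4178, which turned to 0.056 with median centring in place of loess. The difference was -0.50 without pair 2, -0.16 without pair 3 and -1.0 in the authors' deposited table after median centring. These values come from the brightest of its 3 probes. A second, dimmer probe that also passed the filter gave -0.06 and -0.01 with squalene in Cy5, against -0.11 and 0.08 with squalene in Cy3, so the probes differed in sign in pairs 1 and 2 and in size in pair 3. The third Mtf1 probe was not well above background on any array.

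Across the whole table, limma called 0 of 20659 features (0%) at an adjusted p of 0.05 and 510 at an unadjusted p of 0.05, and the 5 genes counted 0 among those that passed adjustment. Ratios above 0 in all 4 pairs were found for 3.34% of features and for 0 of the 5 genes. Ratios below 0 in all 4 pairs were found for 3.04% of features and for 0 of the 5 genes. Both Cy5 pairs above 0 with both Cy3 pairs below 0 was the layout of 15.2% of features and of 2 of the 5 genes, Mt1 and Mt2. An orientation difference over 1 in size was found for 1.19% of features, and again for Mt1 and Mt2. Since the genes were chosen on these ratios, nothing is read from the last 2 counts.

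**Figure D2:**
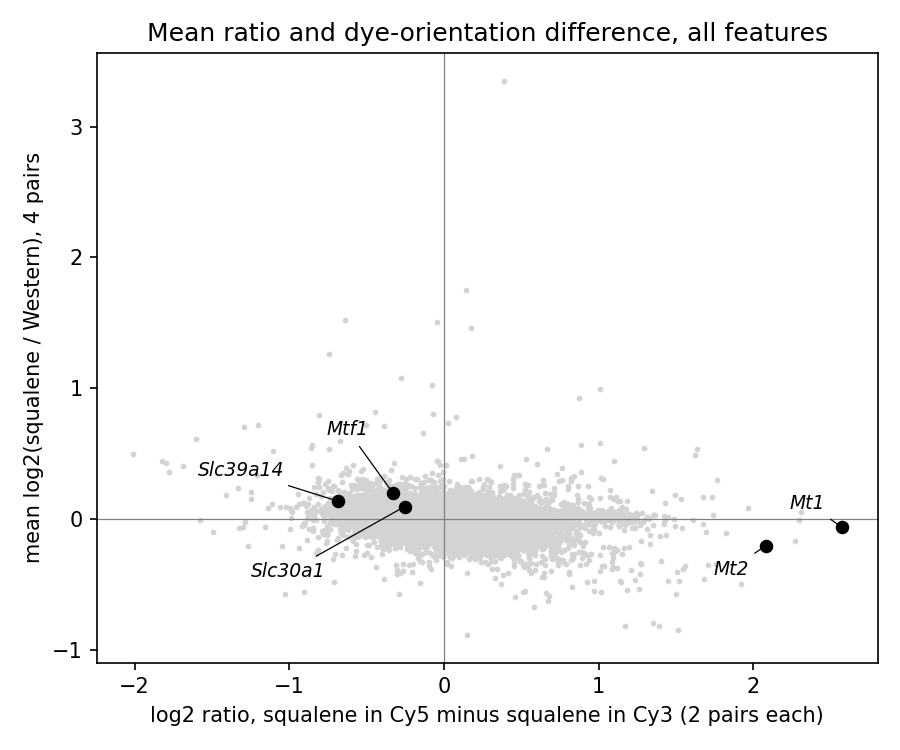
Each point is 1 feature; the horizontal axis is the mean log2 ratio with squalene in Cy5 minus that with squalene in Cy3, and the vertical axis the mean log2 ratio over 4 pairs. Mt1 (2.57) and Mt2 (2.08) lie at the right edge, at means of -0.06 and -0.20. Slc39a14 (-0.68), Mtf1 (-0.33) and Slc30a1 (-0.26) lie left of 0, the last 2 turning positive with median centring.

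Levels are log2 intensities of each channel, which depend on the probe and are not set against another gene's. Mt1 read 15.19, 13.04, 14.44 and 14.86 in the squalene pools of pairs 1 to 4, against 14.03, 15.15, 15.02 and 13.57 in the Western pools. The means were 14.38 ± 0.95 and 14.45 ± 0.77 (SD, n = 4 each), and the diets overlapped. Sorted by dye, the same 8 readings did not overlap: Cy5 averaged 15.06 ± 0.15 and Cy3 13.77 ± 0.60 (SD, n = 4 each). Cy5 was the brighter channel in all 4 pool pairs. Sorting by dye restates the orientation difference, here and for the genes below. It adds no separate finding, as the genes were chosen on these ratios.

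Within a dye, the diet means of Mt1 lay close together. In Cy5, the squalene pools read 15.19 and 14.86 and the Western pools 15.15 and 15.02, a difference of means of -0.06. In Cy3, the squalene pools read 13.04 and 14.44 and the Western pools 14.03 and 13.57, a difference of -0.06. By construction, the within-dye differences average to the mean ratio over pairs. The 2 squalene pools read in Cy3 were 1.41 apart, or 2.65-fold, the widest gap between pools of one diet and one dye.

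Mt2 read 14.44, 12.25, 13.75 and 13.71 in the squalene pools of pairs 1 to 4, against 13.62, 14.31, 14.17 and 12.86 in the Western pools. The diets overlapped, with means of 13.54 ± 0.92 and 13.74 ± 0.66 (SD, n = 4 each). Cy5 averaged 14.16 ± 0.31 and Cy3 13.12 ± 0.70 (SD, n = 4 each), with Cy5 brighter in all 4 pool pairs. The dyes overlapped narrowly, as the highest Cy3 reading (13.75) passed the lowest Cy5 reading (13.71). Squalene minus Western was -0.16 within Cy5 and -0.24 within Cy3. The squalene pools read in Cy3 were 1.50 apart, or 2.82-fold, again the widest gap between pools of one diet and one dye.

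Brightness was read beside these ratios, as Mt1 and Mt2 are among the brighter features. Of the 842 features at least as bright as Mt1, 344 (40.9%) were higher in Cy5 in all 4 pairs, against 15.2% of all features. An orientation difference over 1 in size was found for 63 of the 842, against 245 of all 20658 (1.19%). Of the 1375 at least as bright as Mt2, 454 (33.0%) were higher in Cy5 in all 4 pairs. Such a difference was found for 76 of the 1375. The part of brightness in the metallothionein ratios was not tested.

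**Figure D3:**
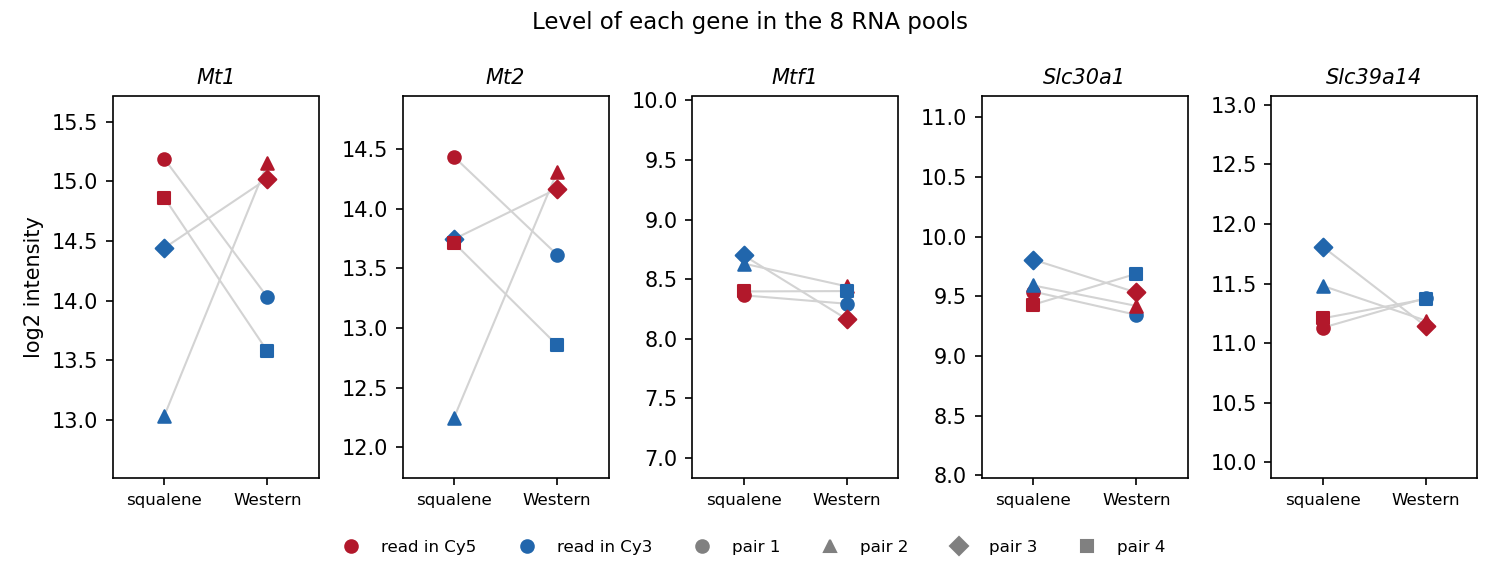
Each panel is 1 gene; the vertical axis is log2 intensity over a span of equal size in every panel, squalene pools are left of Western pools, grey lines join the pools of a pair, red points were read in Cy5 and blue points in Cy3. For Mt1 the red points lie between 14.86 and 15.19 in both diets and the blue points between 13.04 and 14.44.

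Slc39a14 read 11.13, 11.48, 11.81 and 11.21 in the squalene pools of pairs 1 to 4, against 11.38, 11.19, 11.14 and 11.37 in the Western pools. Here Cy3 was the brighter channel in all 4 pool pairs: Cy5 averaged 11.17 ± 0.04 and Cy3 11.51 ± 0.21 (SD, n = 4 each), without overlap. Squalene minus Western was 0.0048 within Cy5 and 0.27 within Cy3. The pair 3 squalene pool, at 11.81, was the highest of the 8.

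Slc30a1 read 9.54, 9.59, 9.81 and 9.43 in the squalene pools, against 9.34, 9.42, 9.53 and 9.69 in the Western pools, and the diets overlapped. Its readings moved with the slide: pair 1 gave 9.28 on slide 1 and 9.80 on slide 2 for squalene, and 9.11 and 9.58 for Western. The ratio of pair 1 was 0.16 on slide 1 and 0.23 on slide 2. Mtf1 read 8.36, 8.63, 8.70 and 8.40 in the squalene pools, against 8.29, 8.44, 8.16 and 8.40 in the Western pools. Its squalene pools lay higher in pairs 1, 2 and 3, by at most 0.53, and level with Western in pair 4.

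Of the other metallothioneins, Mt3, known mainly from brain, passed the filter and Mt4 did not. Mt3 gave ratios of 0.34 and 0.43 with squalene in Cy5, against -0.36 and -0.03 with squalene in Cy3, a difference of 0.58. It had the signs of Mt1 and Mt2 in each pair at a smaller size. Transcripts of this family are alike in sequence, so cross-hybridisation of its probes was not tested.

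Among the other zinc exporters, 0 of the 6 measured of 9 listed passed the adjusted test in either direction, and among the other zinc importers 0 of 11 of 13. The median orientation difference was -0.19 over the exporters and 0.01 over the importers, against 0.02 over all features. The exporters with the largest differences were Slc30a9 (-0.39), Slc30a4 (-0.27) and Slc30a10 (-0.20), the last a manganese exporter with a mean ratio of -0.34 ± 0.66 (SD, n = 4). The importers with the largest were Slc39a7 (-0.50), which releases zinc from the endoplasmic reticulum and Golgi, Slc39a13 (0.33) and Slc39a6 (0.18).

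Of 8 other genes listed as MTF1-responsive, all measured, 0 passed the adjusted test, and their median orientation difference was 0.31. Csrp1, a LIM-domain protein, had the largest (0.77), with ratios of 0.35 and 0.29 with squalene in Cy5, against -0.38 and -0.52 with squalene in Cy3. Ndrg1 (0.74) and Selenow (0.48), a selenoprotein, came next.

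Copper and iron share carriers and storage proteins with zinc. Of the copper genes, 0 of 10 measured of 12 listed passed, and the largest differences were those of Cp (-0.47), the plasma copper oxidase ceruloplasmin, Xiap (-0.38) and Steap4 (-0.24). Of the iron genes, 0 of 15 passed, with a median difference of 0.04. Trf, the plasma iron carrier transferrin, gave 0.72 and 0.46 with squalene in Cy5, against -0.50 and -0.85 with squalene in Cy3, a difference of 1.27. The ferritin subunits Ftl1 (1.17) and Fth1 (0.67), which store iron, lay on the same side as Trf and Mt1. Of the zinc-dependent liver enzymes, 0 of 11 measured of 13 listed passed, led by Bhmt (-0.64), Mme (-0.42) and Car2 (0.40).

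Lists of other known inducers of metallothionein gave 0 adjusted calls as well. The 16 glucocorticoid-responsive genes had a median difference of -0.10 and included large values of both signs: Igfbp1, a binding protein for insulin-like growth factors (2.07), Mfsd2a (-1.58) and Pdk4, which restrains glucose oxidation (1.50). The 22 IL-6 and STAT3 acute phase genes had a median of 0.18, led by Hp, the haemoglobin carrier haptoglobin (1.54), Saa2 (1.21) and Lcn2 (1.02). The 10 measured of 11 listed NRF2 and oxidative stress genes had a median of 0.44, led by Gsta1 (1.43), Osgin1 (0.65) and Gstm1 (0.64). None of the genes named from these 3 lists passed the adjusted test in limma.

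**Figure D4:**
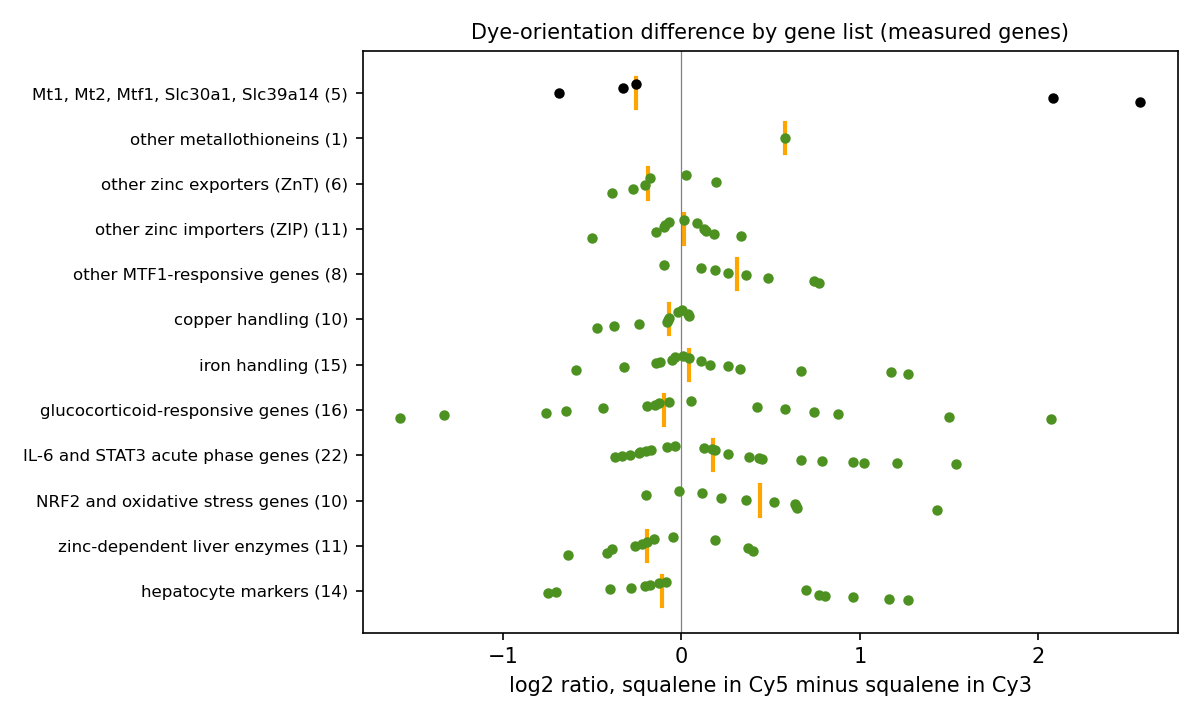
Each row is 1 of the zinc-related, inducer or hepatocyte lists with its number of measured genes, each point 1 gene, and the orange line the list's median; the horizontal axis is the log2 ratio with squalene in Cy5 minus that with squalene in Cy3. Mt1 and Mt2 lie at 2.57 and 2.08, and the nearest points to their left among the lists drawn are Igfbp1 at 2.07 and Hp at 1.54.

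Likeness to the metallothioneins was measured as the root mean square distance, over 4 pairs, from the average of the Mt1 and Mt2 ratios, which was 0.99, -2.09, -0.50 and 1.07 in pairs 1 to 4. Mt1 and Mt2 were 0.29 apart by the same measure. Among the 10 nearest of 13306 other features with a symbol were Cx3cr1 (0.61), the fractalkine receptor, Psme3 (0.67), Col1a1 (0.68), a collagen chain, and Timp1 (0.69), a metalloproteinase inhibitor. Cd207 (0.69), Igfbp1 (0.72), Atp8a1 (0.72), Hp (0.73) and Golga7b (0.74) were also among them. The median distance of all was 1.30. Slc30a1 (1.42), Mtf1 (1.44) and Slc39a14 (1.59) were farther than that median. With 4 points that share the dye layout, this is a description of these pools.

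Cell type markers were read beside these ratios. All 14 hepatocyte markers were measured, and their summed level was 20.63, 20.29, 20.25 and 20.65 in the squalene pools of pairs 1 to 4, against 20.21, 20.59, 20.63 and 20.32 in the Western pools. The Cy5 channel had the higher sum in each pair, as for Mt1, but the markers were split: 6 of the 14 had both Cy5 pairs above 0 and both Cy3 pairs below 0, 3 had the reverse, and their median orientation difference was -0.11. The 12 stellate cell and fibroblast markers, all measured, summed to 14.71 to 15.26 in the squalene pools, against 15.06 to 15.29 in the Western pools, and 6 of the 12 had both Cy5 pairs above 0 and both Cy3 pairs below 0. Of 8 red cell markers, 6 were measured, summing to 16.24 to 17.34 in the squalene pools, against 16.73 to 17.95 in the Western pools. Their Cy5 sum was the higher in each pair, and their median orientation difference was 1.21. All 9 lipid-associated macrophage markers were measured, summing to 13.61 to 14.13 in the squalene pools, against 14.05 to 14.33 in the Western pools. Their median orientation difference was 0.56. Of these 9, 0 had a mean ratio above 0, against 10700 of 20658 features. That count was 0 of 6 for red cell, 0 of 4 for bile duct and 0 of 2 for adipocyte markers. It was 1 of 13 for Kupffer cell and macrophage, 1 of 9 for endothelial and 1 of 5 for neutrophil markers. Stellate cell and fibroblast markers gave 3 of 12, exocrine pancreas 2 of 4, lymphocyte 7 of 8 and hepatocyte 12 of 14. Median orientation differences were 0.07 for Kupffer cell and macrophage, 0.10 for endothelial, 0.13 for neutrophil and 0.22 for lymphocyte markers. They were 0.04 for bile duct, -0.01 for exocrine pancreas and 0.88 for adipocyte markers, the last from 2 measured of 6 listed. Over all features, 15.2% had both Cy5 pairs above 0 and both Cy3 pairs below 0. The part of these markers in the metallothionein ratios was not tested.

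Each array had 62976 spots, none of them saturated, and in either channel 48.67% to 54.16% were well above background. Across all features, pairs of one orientation correlated at 0.08 (pairs 1 and 4) and 0.16 (pairs 2 and 3), and pairs of opposite orientation at -0.43 to -0.02. The Apoe probe read 11.13 to 11.79 in the squalene pools, against 11.29 to 11.92 in the Western pools; both diets carry the same deficiency, so it checks no label.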

How the data were processed

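Spot and background intensity in both channels were, per the file headers, extracted by Agilent's Feature Extraction software (10.7.3.1), as were marks for control spots, outliers and signal above background. The authors' deposited table of log10 ratios equalled unnormalised squalene over Western median signals within 0.001 for 99.93% to 99.94% of spots. Its columns were not centred: their medians on the log10 scale were 0.254 and 0.27 (pair 1), 0.259 (pair 4), -0.217 and -0.257 (pair 2) and -0.27 (pair 3). For pair 1, 2 cells per column held no log ratio, and those deposited columns are recorded as a score. Probes were named through accessions in RefSeq (GRCm38.p6).

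Median signals were corrected by normexp (offset 50) and loess in R 4.3.3 with limma 3.58.1; tables were handled by data.table (version 1.17.8). A probe was kept where it was above background on over 0.5 of a pair's spots in at least 3 pairs for 1 diet, leaving 26854 probes, and the brightest stood for each gene. Repeat arrays were averaged. limma's lmFit and eBayes held squalene and a dye term, adjusted by Benjamini-Hochberg. The fit was also run on simulated data with noise of equal spread for every feature, unlike these arrays. That run checks the code only. Levels, as log2 intensity, followed Aquantile scaling. P-values rest on the spread between pool pairs of one orientation, array noise included, which eBayes moderates across features. They do not measure the spread between single mice.

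The genes and lists were chosen with earlier results of these data known. Named genes were the 3 with the largest orientation difference in each list and the 10 nearest to Mt1 and Mt2, of which 1 is not reported here. Alternatives changed the slide, normalisation, background step, dye term, probe filter, variance model, choice of probe and replicates. Each array's ratio already pairs 1 pool of each diet.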

Additional observations from a re-analysis of the deposited data

Results flagged for a closer look

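Mt1 had ratios above 0 in both pairs with squalene in Cy5 and below 0 in both pairs with squalene in Cy3, a difference of 2.57 on the log2 scale. Mt2 split the same way, by 2.08. Slc39a14 split the other way, by -0.68. Each was flagged because every pair of one orientation moved against every pair of the other. Such splits were common: 3130 of 20658 features (15.2%) had the layout of Mt1 and Mt2, and 2604 had that of Slc39a14. With 2 pairs each, and the genes chosen on these values, the differences were not tested.

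The dimmer Mtf1 probe that passed the filter read 6.75 in the Western pool of pair 1, against 6.88 to 6.89 in the other 3 Western pools, far from the rest for its group's range. It was 1 of 18 sets of 4 values checked, and chance picks about 1 in 20.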

How the results depend on the processing

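The orientation difference stayed above 0 for Mt1 (1.80 to 3.44) and Mt2 (1.26 to 2.90) under all 14 alternatives that give one. Without a dye term there is none. Mt1 and Mt2 have 1 probe each, so the probe filters and the mean over probes returned the main values, 2.57 and 2.08. The variance model cannot change these values either, so those alternatives add nothing. By size, Mt1 ranked between 1 and 39 over 15 settings and Mt2 between 3 and 171. Median centring in place of loess moved the difference to 3.44 for Mt1, 0.056 for Mtf1, 0.21 for Slc30a1 and -0.10 for Slc39a14, so Mtf1 and Slc30a1 changed sign. The authors' deposited table, neither background-corrected nor loess-normalised and here centred on each column's median, gave -1.0 for Mtf1, -1.01 for Slc30a1 and -1.42 for Slc39a14. Mean ratios changed sign when a replicate was left out for Mt1 (0.32) and Mt2 (0.21) without replicate 2 and for Slc30a1 (-0.02) without replicate 1; the cause was not tested.

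Features past an adjusted p of 0.05 in limma numbered 2 with median centring, 3 with arrays as observations, pool pair as a random block and a slide term, and 8 from the deposited table, against 0 in the other alternatives, none of them among the 5 genes. Features past an unadjusted p of 0.05 (510) became 201 with median centring, 935 without a filter, where 37147 features were tested, 254 without a dye term, 6 with trend and robust variance, 183 from the deposited table, and 363 to 1309 when a replicate was left out. Mt1 and Mt2 were above background on every array, and the number of pool pairs (4) limits the precision. No paired analysis was possible because the orientations share no replicate numbers, and each ratio already pairs 2 pools.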
